A study of Gossypium with 24 samples.

Results

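The comparison described here is the response of cotton roots of variety 9001 to flooding in darkness, taken at the end of the flooding (0 h). Its members are 6 of the 24 libraries of the series, chosen by their labels. Waterlogged 9001 has 3 libraries from seedlings that stood flooded for 96 h in the dark, and control 9001 has 3 libraries from seedlings kept drained for 96 h in the dark. Both groups share the darkness, the sampling time and the genotype, and the submitters describe 9001 (ZM9001 in the design text) as tolerant of waterlogging. For comparison, roots of the flood-sensitive variety 4847 were sampled under the same 2 conditions, 3 libraries each, and drained 4847 plants also after a further 24 h in the light (3 libraries). For the 4 genes named below, values are also given from 9001 plants after a further 24 h in the light, 3 libraries from formerly waterlogged and 3 from control plants. The labels say neither whether plants were pooled nor whether replicate libraries stem from different plants, so a p-value tells of the variation among the libraries at hand, and that may be technical. All values are counts of RNA sequencing reads per gene ID from whole roots.

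Waterlogged soil holds little oxygen, because gases move slowly through water, and roots in it shift from respiration towards fermentation and faster use of sugars. Plants sense the shortage through enzymes that use oxygen to mark transcription factors for breakdown, and the factors that escape switch on genes of anaerobic metabolism, while costly processes such as growth are turned down. Cotton is an allotetraploid with A and D chromosomes, so that many genes exist as an A copy and a D copy. The files give gene IDs with a chromosome label and no gene names or functions. Genes of fermentation, the GABA shunt named in the study's title, or markers of root or shoot cells were therefore not looked up here, and the tissue label was not checked against markers.

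Most counts in waterlogged 9001 roots came from genes that were higher than in control roots. Fitted across all 24 libraries, 13065 of the 50638 genes tested were at least 2-fold higher in waterlogged than in control roots (25.8%) and 15076 were at least 2-fold lower (29.8%; edgeR quasi-likelihood test, adjusted p under 0.05). The risers held 69.7% of all counts in waterlogged 9001, against 20.8% in control 9001. The fallers held 4.50% of counts in waterlogged 9001 and 35.8% in control 9001. A median riser had 12.7 CPM (counts per 1000000 of the scaled library) in waterlogged roots, against 1.92 CPM in control roots, and a median faller had 0.956 CPM, against 5.09 CPM. These shares describe genes that were chosen by the same contrast, and no test was made of them.

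Under TMM, the scaling used throughout, the size of the changes was uneven between the directions. At 4-fold or more, 7991 genes were higher and 8658 lower, but at 8-fold or more the higher genes were the more numerous, with 5138 against 4731. At 64-fold or more 1520 genes were higher (3.00% of those tested) and 758 lower (1.5%), and at 1024-fold or more 237 were higher and 35 lower. A gene can fall only as far as its level in control roots allows at this depth, and the largest fitted folds rest on groups with few counts, so the sizes at that end are approximate. TMM is a method that assumes that most genes do not change. The median log2 fold change of all genes tested was -0.13 under TMM and -0.99 with library totals as the only scaling. Without the 2-fold condition, 18301 genes were called higher and 20626 lower under TMM (36.1% and 40.7% of those tested), and 11375 higher and 29676 lower with library totals alone. Which direction was the more numerous at 8-fold depended on the scaling: 4861 genes were higher and 5103 lower with upper-quartile scaling, and 3476 higher and 8137 lower with library totals alone. With limma on log2(FPKM + 1) the counts at 8-fold were 924 and 1033, and on log2(FPKM + 0.1) 2011 and 4473. At 64-fold the counts with library totals alone were 1111 higher and 1077 lower. In roots sampled whole, fewer cells of a type and less RNA per cell cannot be told apart.

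**Figure D1:**
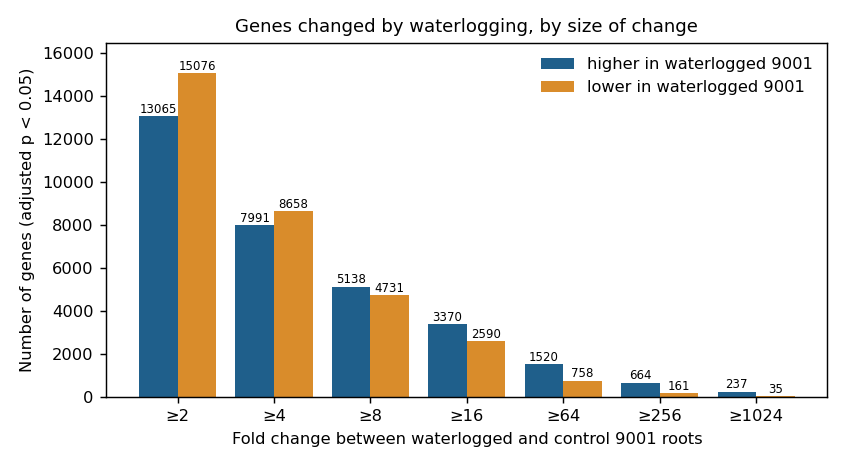
Number of genes at least as many times higher (blue) or lower (orange) in waterlogged than in control 9001 roots as the fold on the horizontal axis, among genes with an edgeR adjusted p under 0.05. The lower genes outnumber the higher ones at 2-fold and 4-fold, and under the TMM scaling plotted here the higher genes outnumber the lower ones from 8-fold on, an order that turns at 8-fold under library totals alone, upper-quartile scaling and both FPKM settings.

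In 9001, most genes separated the groups fully in TMM-scaled CPM. In 17974 genes (35.5% of those tested) each waterlogged library lay above each control library, and in 20787 genes (41.1%) each lay below. Of all orderings of 3 against 3 libraries, a share of 0.1 separates the groups fully in either direction. Of the genes called at 2-fold, 12453 of the 13065 risers and 14724 of the 15076 fallers had no overlap between the groups. Beyond counting noise, libraries varied with a biological coefficient of variation of 11.4% in waterlogged 9001 and 7.23% in control 9001. Library totals ran from 36655826 to 37427117 counts in waterlogged 9001 and from 37962737 to 38469008 in control 9001.

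Counts were packed into fewer genes in flooded roots. The top 100 genes of each library took up 19.35%, 19.86% and 19.58% of counts in the 3 waterlogged libraries, against 13.33%, 13.62% and 13.23% in the 3 control libraries. The groups did not overlap, and the difference was 6.20 percentage points (exact permutation test, two-sided p = 0.1, the lowest value possible with 3 libraries a group). The most abundant genes that together held 50% of counts numbered 1055, 1006 and 1032 in the waterlogged libraries and 2253, 2191 and 2274 in the control libraries (exact permutation p = 0.1). Of the 100 most abundant genes of waterlogged 9001, 19 were also among the 100 most abundant of control 9001. Of the list of waterlogged 9001, 95 of 100 genes were called at least 2-fold higher and 1 lower, where 25.8% and 29.8% of all tested genes were. The list of control 9001 held 50 genes that were called at least 2-fold lower and 16 higher. A list of the most abundant genes of one group favours genes that are high in that group, so nothing is read from these counts. The 10 genes with the largest gain took 5.78% of counts in waterlogged 9001, against 0.233% in control 9001, and the 1000 with the largest gain took 45.2%, against 9.01%.

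The most abundant gene per unit of length changed with flooding. Ghir_D01G005940, an ID on chromosome D01, ranked 1 by mean FPKM (counts scaled by gene length and library total) in waterlogged 9001 and 69 in control 9001. Its length, as the FPKM values imply it, was 1516 bases. Ghir_D09G018070, on D09 and 1495 bases long, ranked 70 in waterlogged 9001 and 1 in control 9001. Their mean FPKM were 5102 ± 199 and 691.4 ± 13.2 in waterlogged 9001, and 488.6 ± 6.49 and 5160 ± 50.1 in control 9001 (SD, n = 3 each). These are 2 of the 4 IDs named here, the 2 that gained and the 2 that lost the most CPM among the genes called at 2-fold with no overlap between the groups. The files give no function for them.

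Ghir_D04G011360, 3935 bases long on D04, gained the most. It had 16930, 19690 and 18180 CPM in the waterlogged libraries, against 184.0, 190.2 and 188.5 CPM in the control libraries. Every waterlogged library was far above every control library, and this gene alone took 1.07% of all counts in waterlogged 9001, against 0.0198% in control 9001. In log2 units the change was 6.61 (SE 0.0486, edgeR adjusted p = 7.95e-54). Ghir_D01G005940 had 12480, 13870 and 13430 CPM in waterlogged 9001 and 689.3, 713.9 and 698.4 CPM in control 9001, and its change was 4.24 in log2 units (SE 0.0409, edgeR adjusted p = 9.45e-50). In drained roots its rank by FPKM was 69, and that of Ghir_D04G011360 was 1711.

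Ghir_D09G018070 lost the most. It had 1724, 1783 and 1807 CPM in the waterlogged libraries and 7254, 7429 and 7204 CPM in the control libraries. It fell by 2.04 on the log2 scale (SE 0.0314, edgeR adjusted p = 4.20e-42) and was still among the abundant genes of flooded roots. Ghir_A03G018700, 2448 bases long on A03, had 573.8, 635.4 and 596.8 CPM in waterlogged 9001, against 4207, 4519 and 4099 CPM in control 9001. It fell by 2.83 on the log2 scale (SE 0.0387, edgeR adjusted p = 4.69e-44), and its rank by FPKM was 589 in waterlogged and 7 in control roots. The p-values of these 4 genes describe genes picked for their size of change in the same libraries.

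**Figure D2:**
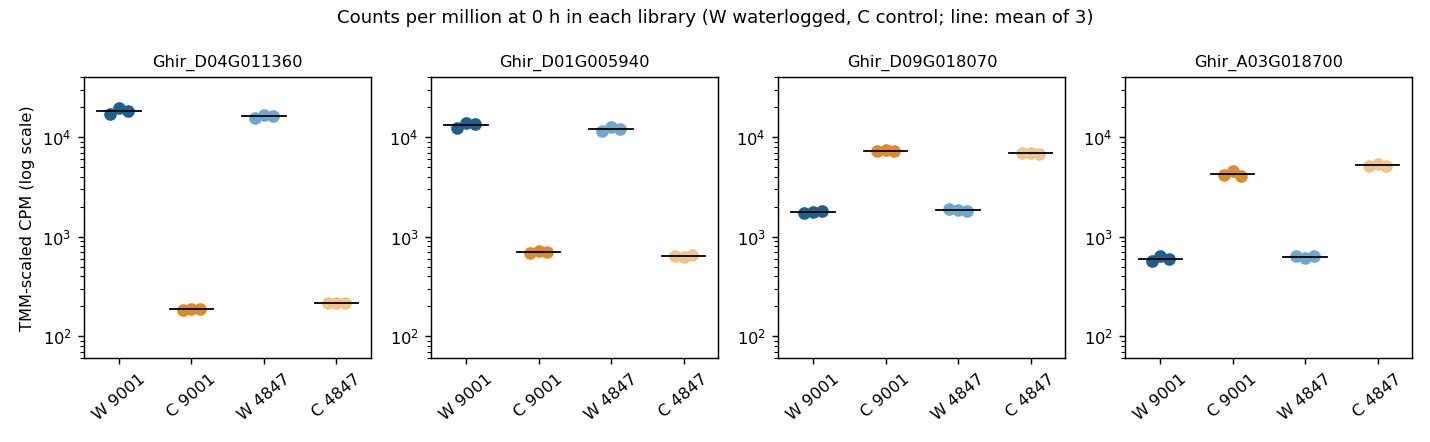
TMM-scaled CPM on a log axis for the 4 named genes in each library at 0 h, for waterlogged (W) and control (C) roots of both varieties, with a line at the mean of 3 libraries. In 9001, waterlogged libraries lie between 12480 and 19690 CPM for the 2 genes that rose, and between 573.8 and 1807 CPM for the 2 that fell.

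The 4 genes behaved much alike in 4847, which shares no library with 9001. The log2 fold changes in 4847 were 6.22 for Ghir_D04G011360, 4.22 for Ghir_D01G005940, -1.89 for Ghir_D09G018070 and -3.05 for Ghir_A03G018700 (SE 0.0477, 0.0409, 0.0312 and 0.0390). The difference between the responses, 9001 minus 4847, was 0.38 for Ghir_D04G011360 (SE 0.0545, edgeR adjusted p = 4.69e-07) and 0.02 for Ghir_D01G005940 (SE 0.0508, edgeR adjusted p = 0.870). With library totals alone these differences were 0.20 and -0.16. For Ghir_D09G018070 it was -0.15 (SE 0.0427, edgeR adjusted p = 0.00910) and for Ghir_A03G018700 it was 0.22 (SE 0.0512, edgeR adjusted p = 0.00124). The call for Ghir_D09G018070 was lost with RLE scaling at a difference of -0.12 (edgeR adjusted p = 0.0592), while with library totals alone the difference was -0.33. For Ghir_A03G018700 the difference shrank to 0.04 with library totals alone (edgeR adjusted p = 0.576).

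The same genes were also measured in 9001 after drainage and 24 h in the light. Ghir_D04G011360 had 1178 ± 52.6 CPM in formerly waterlogged 9001 roots, against 242.7 ± 2.45 CPM in control roots of that time, and Ghir_D01G005940 had 712.4 ± 6.74, against 32.0 ± 1.70 CPM (SD, n = 3 each). Ghir_D09G018070 had 243.7 ± 6.09 CPM in formerly waterlogged roots and 227.4 ± 0.427 CPM in their controls, and Ghir_A03G018700 had 1462 ± 63.2 and 1155 ± 23.4 CPM. Control roots of 9001 alone had 242.7 CPM of Ghir_D04G011360 at 24 h, against 187.6 CPM at 0 h, and 32.0 CPM of Ghir_D01G005940, against 700.5 CPM. They had 227.4 CPM of Ghir_D09G018070 at 24 h, against 7296 CPM at 0 h, and 1155 CPM of Ghir_A03G018700, against 4275 CPM. Without any flooding, 3 of these 4 genes thus had less CPM at 24 h than at 0 h in the control roots. No drained plants were kept dark for those 24 h, so light and time cannot be told apart.

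Some genes were seen in one condition only. With no count in any control library and at least 10 counts in each waterlogged library, 423 genes appeared under flooding. Their median level was 1.72 CPM in waterlogged 9001, 74 of them were above 10 CPM, 21 above 100 CPM, and the highest stood at 1102 CPM. The reverse, no count in any waterlogged library and at least 10 in each control library, held for 260 genes, with a median of 0.805 CPM in control 9001, 5 genes above 10 CPM and none above 100. More of the genes that appeared than of those that vanished thus stood above 10 CPM. The medians are not on an equal footing, because 10 counts stand for more CPM in the waterlogged libraries. Their TMM factors were 0.574 to 0.593, against 1.05 to 1.06 in the control libraries. In 4847, 413 of the 423 (97.6%) were called at least 2-fold higher under waterlogging, where 25.0% of all tested genes were, and 234 of the 260 (90.0%) were called at least 2-fold lower, where 27.2% of all were. Of all risers of 9001, 83.8% were called higher in 4847, and of all fallers 79.6% were called lower. A group without counts shows only that the gene was below detection at this depth.

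The response of 9001 could also be read in genes chosen by the contrast of 4847, which shares with it the low-count filter and the estimate of spread but no library. The 12675 genes that rose at least 2-fold in waterlogged 4847 held 66.27%, 66.44% and 66.36% of counts in the waterlogged 9001 libraries and 18.75%, 18.77% and 18.77% in the control 9001 libraries. The 13757 genes that fell in 4847 held 4.39%, 4.37% and 4.37% in waterlogged 9001, against 34.14%, 34.16% and 34.11% in control 9001. The libraries of a group lay close together in both lists and the groups did not overlap, and the differences were 47.6 and -29.8 percentage points (exact permutation tests, two-sided p = 0.1 for each, the lowest value possible). These shares of raw counts need no TMM scaling in 9001, although the choice of genes in 4847 used it.

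The share of genes called the same way in 9001 rose with the size of the change in 4847. A larger change passes a fixed 2-fold call more easily, so this rise was partly set by the rule. Of the genes that rose at least 2-fold in 4847, 86.4% were called higher in 9001, and this share was 91.8% for the 4656 that rose at least 8-fold and 98.1% for the 1332 that rose at least 64-fold. Over all tested genes it was 25.8%. Of the fallers of 4847, 87.2% were called lower in 9001, 91.7% of the 3782 that fell at least 8-fold and 94.1% of the 524 that fell at least 64-fold, against 29.8% of all genes. Among the 24206 genes with no 2-fold call in 4847, 8.63% were called higher in 9001 and 12.6% lower.

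**Figure D3:**
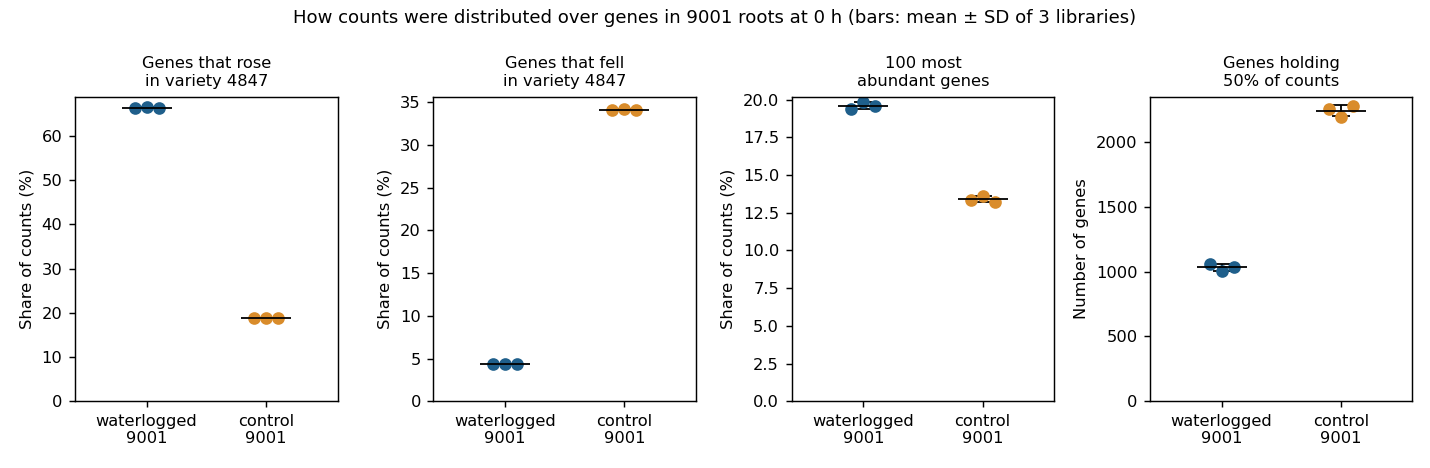
Share of counts in genes that rose or fell in waterlogged 4847, share of counts in the 100 most abundant genes, and number of genes holding 50% of counts, in each library of waterlogged 9001 (blue) and control 9001 (orange), with the mean and SD of 3 libraries. The groups do not overlap in any panel: the risers of 4847 hold 66.4% of counts in waterlogged 9001 and 18.8% in control 9001.

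At the 2-fold cut, genes that follow light or time in drained roots were called under flooding about as often as all genes. In control 4847, 14286 genes were at least 2-fold higher after 24 h in the light than at the end of the dark period (28.2% of those tested), and 9201 were lower (18.2%). In 9001, flooding raised 28.4% of the list that was higher in the light and lowered 29.6%, with a median log2 fold change of -0.09. Of the list that was lower in the light, flooding raised 26.3% and lowered 31.1%, with a median of -0.12. Over all tested genes the shares were 25.8% and 29.8% and the median -0.13, so both lists were close to the background. The counts in these lists moved with the scaling, as those over all genes did. Genes higher at 24 h could enter the test through their counts at 24 h, so that list's shares were partly set by the low-count filter. With only the compared 9001 libraries in filter and fit, 3041 of its genes were called higher and 3279 lower, against 4058 and 4225. For the list lower at 24 h the counts were 2436 and 2757, against 2419 and 2863.

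**Figure D4:**
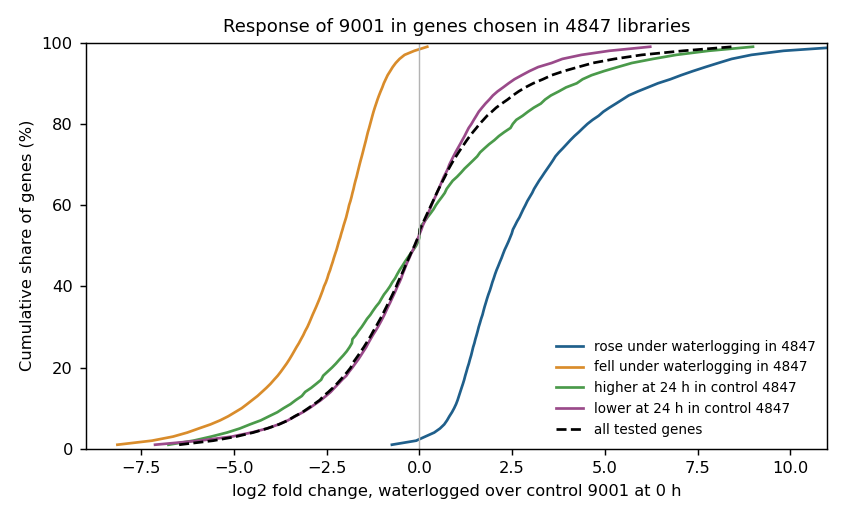
Cumulative share of genes by log2 fold change, waterlogged over control 9001 roots at 0 h, for genes that rose or fell under waterlogging in 4847, genes higher or lower at 24 h than at 0 h in control 4847, and all tested genes (dashed). The medians are 2.35 and -2.20 for the risers and fallers of 4847, -0.09 and -0.12 for the 2 control lists, and -0.13 for all genes.

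How a gene responded in 9001 varied with how strongly drained roots express it. Levels were taken from control 4847, so that no 9001 library set them. Of the 18149 genes at 1 to 10 CPM there, 21.1% were called higher and 38.3% lower under flooding in 9001. At 10 to 100 CPM the shares were 21.3% and 29.1% of 15469 genes, and above 100 CPM they were 22.8% and 35.1% of 1591 genes. At 0.1 to 1 CPM, 30.3% of 8876 genes were called higher and 29.3% lower. Under 0.1 CPM, 44.2% of 6553 genes were called higher and 7.11% lower, but such genes entered the test only through counts in some other group, so that this share was partly set by the filter on low counts. The filter asked for about 0.265 CPM, so the same holds for 3051 genes of the class above, of which 34.0% were called higher and 21.5% lower. Among the 5825 genes from there to 1 CPM the shares were 28.4% and 33.3%.

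**Figure D5:**
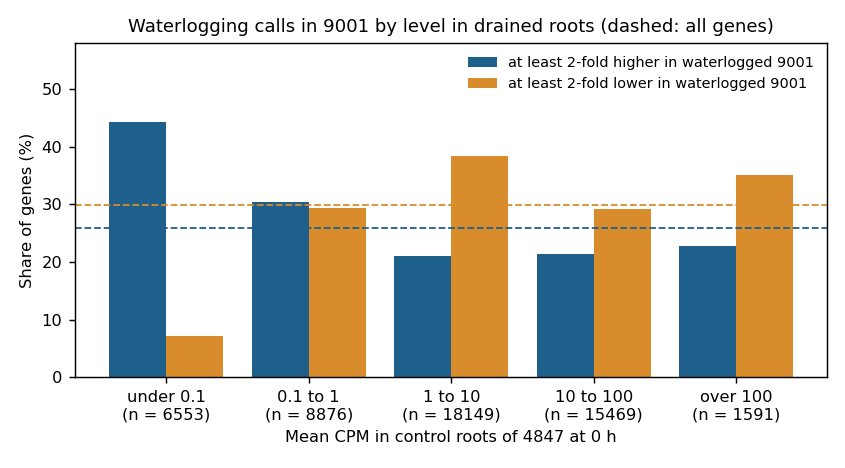
Share of genes called at least 2-fold higher (blue) or lower (orange) in waterlogged than in control 9001 roots, by mean CPM in control roots of 4847 at 0 h, with the number of genes in each class and dashed lines at the shares over all tested genes (25.8% and 29.8%). The lower calls are the more frequent in each class above 1 CPM.

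Gene length, as the FPKM values imply it, went with the calls only weakly. Risers had a median length of 1850 bases, fallers 1927 bases and genes not called 1901.5 bases. Of the 2025 genes up to 500 bases long, 30.0% were called higher and 24.9% lower, while of the 12979 genes of 2000 to 3000 bases 24.6% were called higher and 31.4% lower. For genes longer than 4000 bases these shares were 26.0% and 29.1%. The excess of higher calls among short genes was not seen at each level: among genes at 10 to 100 CPM in control 4847, 18.5% of those up to 1000 bases and 24.0% of those over 3000 bases were called higher. RNA quality was not given in the sources used here, and its part in these shares was not tested.

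All 26 chromosomes took part in the response. The share of tested genes called higher ran from 22.4% on D13 to 28.7% on A08, and the share called lower from 26.3% on A08 to 33.2% on D03 and D04. A chromosomes held 49.41% ± 0.0751 of counts in waterlogged 9001 and 49.24% ± 0.0200 in control 9001 (SD, n = 3 each, exact permutation p = 0.1). In 4847 they held 49.67% ± 0.0351 under waterlogging and 48.90% ± 0.0153 in the control. The change in this share was smaller in 9001 than in 4847, by -0.597 percentage points as 9001 minus 4847 (exact permutation of varieties within each treatment, p = 0.005, the smallest that its 400 arrangements allow, and 0.0175 after Benjamini-Hochberg adjustment over 14 measures). The share was higher in control 9001 than in control 4847, and this permutation does not tell such a difference from one in the response. Reads that match both copies of a gene may have been assigned to either, and how they were counted is not given in the sources used here.

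Single genes weighed on the share of whole chromosomes. D04 held 3.31% ± 0.0414 of counts in waterlogged 9001 and 2.34% ± 0.00589 in control 9001, a gain of 0.965 percentage points. Ghir_D04G011360 alone gained 1.05 points, so that the rest of D04 changed by -0.0804 points. D01 gained 0.984 points, of which Ghir_D01G005940 made up 0.699. A03, the chromosome of Ghir_A03G018700, held 3.54% ± 0.00505 in waterlogged and 4.44% ± 0.0219 in control roots, and A05 held 5.83% ± 0.0126 in waterlogged 9001 and 6.78% ± 0.00316 in control 9001. Among the 26 chromosomes A01 had the largest gain, with 4.20% ± 0.0139 of counts in waterlogged 9001 and 2.83% ± 0.00928 in control 9001.

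Genes with neighbouring ID numbers tended to respond alike. When a gene was called higher, the next tested ID of the same chromosome was called higher in 32.4% of 13059 cases, where 25.8% of all genes were, and called lower in 25.0%. After a gene called lower the next ID was lower in 34.8% of 15071 cases, against 29.8% of all genes, and higher in 21.1%. There were 140 runs of 5 or more consecutive higher genes, with 797 genes in all, and 168 runs of lower genes with 963. The longest held 11 higher genes on D05, with a median log2 fold change of 2.15, 7 of them also called higher in 4847. The run with the largest median was one of 5 higher genes on A05, with log2 fold changes of 4.15 to 15.30 and a median of 8.98, and all 5 were called higher in 4847. Of all risers of 9001, 83.8% were called higher in 4847, so that 5 of 5 was near that share and 7 of 11 below it. Among lower genes, a run of 5 on A10 had a median of -6.20. The files give no positions, neighbours in number may be copies of each other, and copies can share reads, so these are counts of IDs and not of independent genes.

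Along the ID numbers of a chromosome, calls were not evenly spread. In the first and the last decile of the numbers 29.0% and 28.1% of tested genes were called higher, and 26.2% and 26.4% lower. In the fifth decile 23.3% were called higher and 32.4% lower. On 22 of the 26 chromosomes the share called higher was larger in the outer deciles together than in the fourth to sixth deciles, and on 23 of 26 the share called lower was smaller. The median level in control 4847 ran from 3.70 to 4.76 CPM over the deciles. No test was made of this pattern, since genes are not independent replicates.

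Where the response of 9001 differed from that of 4847 was tested in the same fit. In 1409 genes the response of 9001 exceeded that of 4847 at least 2-fold (2.78% of those tested), and in 1612 genes it lay at least 2-fold below it (3.18%). Among the first, 528 genes rose in both varieties and further in 9001, 332 were called higher in 9001 only, 240 were called lower in 4847 only, and 186 fell in both but less in 9001. Among the second, 624 fell in both and further in 9001, 486 were called lower in 9001 only, 214 were called higher in 4847 only, and 154 rose in both but less in 9001. The median log2 fold change of the first set was 2.01 in 9001 and 0.21 in 4847, and that of the second -2.39 in 9001 and -0.42 in 4847. In the medians of both sets the larger change was thus on the side of 9001. The 240 and 186 genes of the first set and the 214 and 154 of the second had the call or the larger change in 4847. The choice fixed the sign of the difference and a size of at least 2-fold.

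The median levels of these genes differed between the varieties in both flooded and drained roots. The genes were chosen by a difference that every one of these groups enters, so the levels are partly set by that choice. For the 1409 genes, the median level was 5.85 CPM in waterlogged 9001, against 1.83 CPM in control 9001, and 2.74 CPM in waterlogged 4847, against 2.46 CPM in control 4847. For the 1612 genes it was 0.679 and 3.08 CPM in waterlogged and control 9001, and 1.44 and 2.26 CPM in waterlogged and control 4847. Of the 13065 risers of 9001, 886 (6.78%) had a response at least 2-fold larger than in 4847 and 154 (1.18%) one at least 2-fold smaller. Of the 15076 fallers, 1148 (7.61%) had the larger and 186 (1.23%) the smaller response in 9001. Genes chosen as called in 9001 favour the larger response there. Chosen in 4847 instead, the risers had a median log2 fold change of 2.35 in 9001 and 2.33 in 4847, and the fallers -2.20 in 9001 and -2.11 in 4847. Chosen in 9001, the medians were 2.45 in 9001 and 2.12 in 4847 for risers, and -2.23 and -1.88 for fallers. With library totals as the only scaling, 961 genes had a response at least 2-fold higher and 2582 one at least 2-fold lower in 9001.

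Each waterlogged library had fewer genes at 10 counts or more than each control library. This deficit was larger in 9001 than in 4847, in part because control 9001 had more such genes than control 4847. With each library thinned to 36000000 counts, 38726, 38480 and 38654 genes had at least 10 counts in waterlogged 9001, against 41810, 41743 and 41827 in control 9001 (exact permutation p = 0.1). The mean change was -3173 genes in 9001 and -2089 genes in 4847. Mean numbers were 38620 in waterlogged 9001 and 39048 in waterlogged 4847, and 41793 in control 9001 and 41137 in control 4847. The difference between the changes had p = 0.005 by an exact permutation of varieties within each treatment, the smallest its 400 arrangements allow, and 0.0175 after adjustment over the 14 measures. That permutation takes the varieties as alike in both treatments, so it does not test the responses alone. With a minimum of 100 counts the mean change was -6969 genes in 9001 and -5545 in 4847, with the same p-values. Thinning makes the library totals equal, but not the depth left for most genes: the TMM factors were 0.574 to 0.593 in waterlogged and 1.05 to 1.06 in control 9001, and 0.645 to 0.667 in waterlogged and 1.05 in control 4847. The part of this gap in the difference was not tested. With a minimum of 1 count the groups of 9001 overlapped, at 49510, 48954 and 49062 genes in waterlogged and 49439, 49373 and 49596 in control libraries (exact permutation p = 0.3). The 100 most abundant genes gained 6.20 percentage points in 9001 and 4.77 in 4847, a difference of 1.44 points (exact permutation of varieties, p = 0.1). Here 9001 lay above 4847 in waterlogged (19.6% against 17.83%) and in control libraries (13.39% against 13.06%). When the varieties lie fully apart in the same direction in both treatments, this permutation cannot give less than 0.1. It therefore could not decide whether these gains differ.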

How the data were processed

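Per the labels' protocols, libraries were made from total RNA with a SMARTer mRNA-Seq kit. The authors deposited whole-number counts for 60633 gene IDs on 26 A and D chromosomes, used as deposited, and an FPKM table of the same IDs. FPKM of the 60632 readable lines equalled counts per library total and per a fixed length within a relative difference of 1e-06, which gave the lengths, and 1 malformed line was left out. Which aligner, counter, strand setting and annotation lay behind them was not given in the sources used here. The submitters' processing notes name the build mm10, a mouse assembly that cannot be that of these IDs.

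All 24 libraries (16 residual degrees of freedom) entered 1 fit with edgeR 4.0.16 (filterByExpr, TMM, glmQLFTest) in R 4.3.3, with Benjamini-Hochberg adjustment over 50638 genes. SE is the size of the log2 fold change divided by the root of the F statistic, and is approximate. Single values per library were compared by exact two-sided permutation tests (scipy 1.17.1). The code was tested on simulated data. Named IDs are the 2 rising and 2 falling with the largest difference in mean CPM among genes called at 2-fold without overlap. The comparison and its lists were chosen with earlier results of these data known, and planned lists of named pathways could not be applied. Alternatives were RLE, upper-quartile or no scaling, no filter, DESeq2 1.42.0, limma 3.58.1 on log2(FPKM + 1) and log2(FPKM + 0.1), the compared libraries alone, a replicate block, and leaving out each library.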

Additional observations from a re-analysis of the deposited data

Results flagged for a closer look

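The values below are responses of 9001 minus those of 4847 that were flagged by a p under 0.05. For the measures per library, the permutation takes the varieties as alike in both treatments. A low p there can also come from a difference between the drained roots, so it is no test of the responses alone. With libraries thinned to equal totals, the change in the number of genes with at least 10 counts differed by -1085 genes, and with at least 100 counts by -1423 genes (exact permutation p = 0.005 for each). The change in the share of counts on A chromosomes differed by -0.597 percentage points (exact permutation p = 0.005). These are 3 of 14 measures per library, and each had an exact permutation p = 0.0175 after Benjamini-Hochberg adjustment. In each of the 3, control 9001 lay above control 4847 and waterlogged 9001 below waterlogged 4847. The shares of counts in risers and fallers of 4847 differed by 3.36 and -1.32 points, but 4847 chose those genes, so no test is given for them. These shares were still among the 14 measures of the adjustment, which therefore also rests on them. On the log2 scale the response differed by 0.38 for Ghir_D04G011360 (edgeR adjusted p = 4.69e-07), by -0.15 for Ghir_D09G018070 (edgeR adjusted p = 0.00910) and by 0.22 for Ghir_A03G018700 (edgeR adjusted p = 0.00124). Over all 50638 genes tested, 1409 had a response at least 2-fold higher and 1612 one at least 2-fold lower in 9001.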

How the results depend on the processing

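Of 454 values recomputed under the alternatives, 422 kept their direction and call, or their count within 1.5 times. All 252 values with a library left out did, except that the difference between varieties for Ghir_D01G005940, which was not called, ran from -0.02 to 0.06. The exceptions lay in the scaling and in the FPKM settings, which also scale by library totals alone.

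With library totals only, 11375 genes were called higher, and at 2-fold 8064 higher and 23792 lower in 9001. Of the genes lower at 24 h in control 4847, 1287 were then higher and 4509 lower. The difference between varieties gave 3136 genes higher and 9491 lower in 9001, and 2582 lower at 2-fold. With limma on log2(FPKM + 1), 10813 genes were called higher, 4657 at 2-fold, and 4610 risers of 4847 were called higher. Of the genes higher at 24 h in control 4847, 1198 were higher and 1892 lower, and of those lower at 24 h, 1034 were higher. The difference between varieties gave 8587 genes lower, and 310 higher and 422 lower at 2-fold. With limma on log2(FPKM + 0.1), 11101 genes were called higher, 7303 at 2-fold, and 7010 risers of 4847. Of the control lists 2432 of the genes higher at 24 h were higher, and of those lower at 24 h, 1252 were higher and 4423 lower. The difference gave 3200 genes higher and 8689 lower. The difference for Ghir_D01G005940 turned to -0.16 in all 3 settings, with adjusted p of 0.00537 (edgeR) and 0.0232 and 0.0252 (limma). The call of the difference for Ghir_A03G018700 was lost in the same 3 settings, and that for Ghir_D09G018070 with RLE scaling (edgeR adjusted p = 0.0592).

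The labels number the libraries of each group alike, but equal numbers did not deviate together in 9001 (r = 0.0447, 0.112 and 0.00719), so no pairing was assumed. With a replicate block 12989 genes were 2-fold higher and 15021 lower. Shares by level, length, chromosome and ID number, and the counts of genes without overlap, were computed under TMM alone. Genes under about 10 counts per library limit what can be called absent.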
